A study of Homo sapiens with 7 samples.

Results

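The genes described here encode the subunits of the mitochondrial respiratory chain that come from the nucleus. They are the 91 protein-coding genes of the count table whose symbol begins NDUF, SDH followed by A to D, UQCR, COX4 to COX8 or ATP5 and whose mean was at least 5 CPM (counts relative to the size of the library) over the 7 libraries, out of 66025 gene IDs in the table and 22926 genes tested. The prefixes gave 102 protein-coding genes, of which 11 stayed under 5 CPM. By prefix, 46 members belong to complex I, 8 to complex II, 8 to complex III, 11 to complex IV and 18 to complex V. The prefixes also bring in 12 assembly factors (8 NDUFAF and 4 SDHAF genes), the read-through gene NDUFC2-KCTD14, which shares sequence with NDUFC2, and NDUFA4, a subunit of complex IV that kept its older complex I name. All 91 members passed the filter on low counts, as did 7 of the 11 genes under 5 CPM.

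The libraries came from β-like cells derived from H1, an established human embryonic stem cell line, and enriched by sorting for cells that took up a zinc dye, as insulin granules are rich in zinc. The cells carried a lentiviral short hairpin RNA that doxycycline (Dox) switches on. In the line iKD2 the hairpin targets METTL14, a subunit of the complex that writes N6-methyladenosine on RNA, and in the line iSCR it is a scrambled sequence. The libraries a, b and c of iKD2 with Dox form the group iKD2 Dox+ (n = 3). Those named b and c of the same line grown without Dox form iKD2 Dox- (n = 2), and the group iSCR Dox+ (n = 2) holds libraries a and b of the scrambled line with Dox, so that all groups share the vector and iKD2 Dox- differs from iSCR Dox+ in both line and drug. Each arm is 1 transduced line, and nothing in the labels says that replicates were separate differentiations, so p-values measure only the spread between these libraries.

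The respiratory chain moves electrons from NADH and succinate to oxygen through complexes I to IV and uses the energy to pump protons out of the mitochondrial matrix, and complex V, the ATP synthase, makes ATP as the protons flow back. In β-cells the ATP made from glucose closes potassium channels, which leads to insulin release, so respiration is part of how the cell senses glucose. Most subunits are encoded in the nucleus, while a few core subunits of complexes I, III, IV and V are encoded in mitochondrial DNA.

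Total counts per library lay between 14875429 and 20639156. METTL14 had 18.7, 16.3 and 49.1 CPM in iKD2 Dox+, 39.4 and 22.6 CPM in iKD2 Dox-, and 36.1 and 32.2 CPM in iSCR Dox+, so that the library labelled iKD2 Dox+ c had the highest METTL14 level of all. The fitted METTL14 difference was -0.14 ± 0.63 (log2, SE) against iKD2 Dox- and -0.28 ± 0.63 against iSCR Dox+, and edgeR with Benjamini-Hochberg adjustment called neither (adjusted p = 1.0 and 0.963). Results for iKD2 Dox+ therefore rest on labels that METTL14 did not bear out in 1 library. Library iKD2 Dox- c, at 22.6 CPM, was the lowest control, and METTL14 did not separate the 2 iKD2 groups. Values without the library labelled iKD2 Dox+ c are given for the members' medians, signs and counts at an unadjusted p under 0.05. They are also given for the complex V share. The other sums, the ratios and the values of single genes include that library. The 7 β-cell markers summed to 24780.3 to 28824 CPM in iKD2 Dox+ and 32969 to 39486 CPM in the 4 control libraries. Of them, 5 were lower and 2 higher against iKD2 Dox-, and 6 were lower and 1 higher against iSCR Dox+. The 6 ductal and acinar markers summed to 743 to 856 CPM against 379 to 489 CPM, with PTF1A, the acinar factor, at 0 in every iKD2 Dox+ and iSCR Dox+ library. Among these 6, 4 were higher and 2 lower against iKD2 Dox-, and 4 were higher and 1 lower against iSCR Dox+. In bulk RNA, fewer cells of a type and less RNA per cell cannot be told apart.

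The members spanned a wide range of levels. Their mean over the 7 libraries ran from 5.84 to 277 CPM with a median of 32.2 CPM, 5 members reached 100 CPM and 9 stayed under 10 CPM. Per kilobase of the principal transcript, the scale on which different genes can be compared, COX4I1, the largest nuclear subunit of cytochrome c oxidase, was highest at 188 CPM per kilobase. ATP5IF1, which stops the ATP synthase from running backwards, followed at 155 CPM per kilobase, before COX7C at 122 and the catalytic β subunit ATP5F1B at 112. These levels are of each row alone. Another ID carries the same counts as ATP5IF1, and with it added ATP5IF1 reached 311 CPM per kilobase, above COX4I1.

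Each complex held a range of levels of its own. In complex I the highest member was NDUFS5, an accessory subunit, at 111 CPM per kilobase and the lowest was NDUFAF5, an assembly factor, at 1.83. In complex II, which is also succinate dehydrogenase of the citric acid cycle, the flavoprotein SDHA was highest at 31.9 and the membrane anchor SDHC lowest at 1.42 CPM per kilobase. Complex III ran from UQCRB at 14.2 to the core protein UQCRC1 at 56.4 CPM per kilobase. Complex IV ran from COX7B at 9.61 to COX4I1, and complex V from ATP5MC3, a gene for the membrane ring, at 6.72 to ATP5IF1. The principal transcript of SDHC is annotated with 13566 bases, and its level per kilobase falls with that length. The plot of levels per kilobase shows that the complexes overlap.

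**Figure D1:**
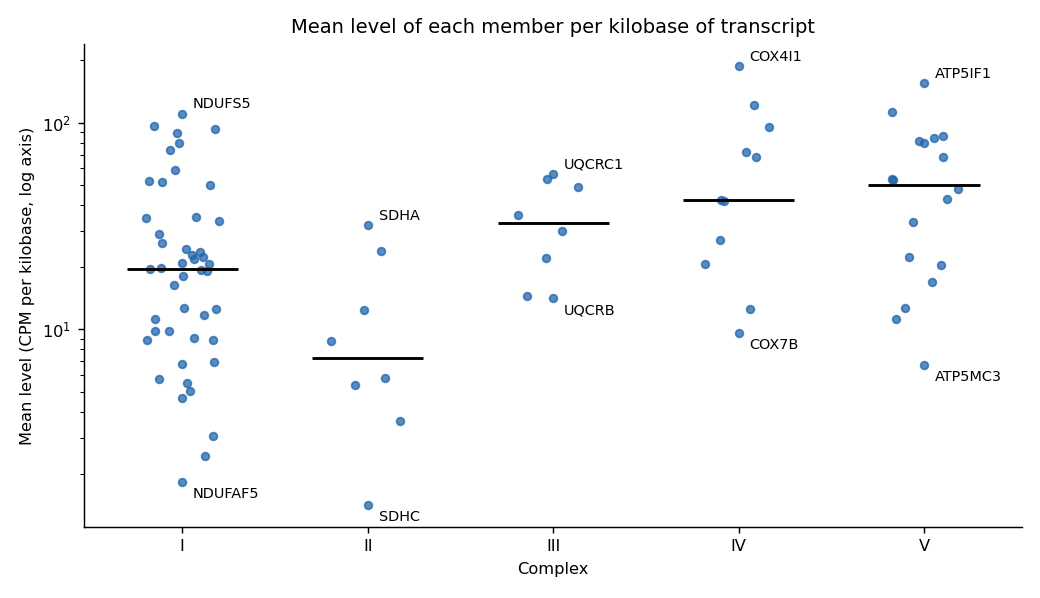
Mean level of each of the 91 members over the 7 libraries, in CPM per kilobase of the principal transcript on a log axis, by complex, from each gene's own row. Each point is 1 gene, the bar is the median of the complex, and the highest and lowest member are named: COX4I1 of complex IV is the highest row and SDHC of complex II the lowest, while ATP5IF1 would pass COX4I1 with its ID of equal count added.

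Several subunits have forms that are bound to a tissue or to low oxygen, and most of these were low or at 0. COX4I1 gave 99.2% of the CPM of COX4I1 and COX4I2, the form tied to low oxygen, with 96.2% to 100.0% over the libraries. COX6A2 and COX7A1, the heart and muscle forms, and COX8C, a testis form, had 0 counts in every library, which allows a mean of up to 0.0252 CPM over the 7 libraries (3 counts in all, counting error only), whereas COX6A1, COX7A2 and COX8A were measured in all. The testis forms COX6B2 and COX7B2 held 5.08% and 0.454% of their pairs on average, with 0% to 19.4% and 0% to 3.18% over the libraries, both highest in iSCR Dox+ a. COX7A2 held 34.1% and COX7A2L 65.9% of their set, and UQCRH held 99.0% of its pair with the nearly identical UQCRHL, where reads cannot be split with certainty. NDUFA4 held 80.7% of its pair with NDUFA4L2, a gene of low oxygen, and that share varied from 57.1% to 100.0%. Of the 3 genes for the same membrane ring protein of ATP synthase, ATP5MC2 gave 49.8%, ATP5MC3 42.4% and ATP5MC1 7.76% of their summed CPM on average. The order varied: ATP5MC2 exceeded ATP5MC3 in all 3 iKD2 Dox+ libraries and in iSCR Dox+ a, and ATP5MC3 exceeded ATP5MC2 in the other 3. These shares compare CPM without regard to transcript length.

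Some promoter motifs, which the rule did not use, were more frequent among the members than among other genes. A RefSeq promoter (build GRCh38.p14, 250 bases before to 50 bases after the start, first start listed) was found for 78 of the 91 members. Among those without an entry were ATP5F1B, ATP5F1D, ATP5MC3, ATP5MF, COX6C, NDUFAF6, NDUFB5, NDUFB9, NDUFC2, NDUFS5, SDHC and UQCRB. The motif of nuclear respiratory factor NRF1, searched as GCATGCGC on both strands, was in 16 of the 78 (20.5%), against 4.26% of protein-coding genes and 3.27% of all 27305 genes listed. The motif of ETS factors such as GABPA, CCGGAAG, was in 23 (29.5%, against 14.2% and 10.7%). That of YY1, AAGATGGCG, was in 8 (10.3%, against 2.74% and 1.85%). At least 1 of these motifs was in 35 promoters (44.9% against 19.5% of protein-coding genes), and NRF1 and ETS together in 8 (10.3% against 0.966%). The shares of the SP1 motif GGGCGG (61.5% against 58.5%) and of TATAAA (7.69% against 9.63%) lay nearer to those of protein-coding genes. With every listed start counted, NRF1 was in 21.8% of members and 4.89% of protein-coding genes, and ETS in 32.1% and 16.5%. A match is a description of letters, and binding was not measured here.

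**Figure D2:**
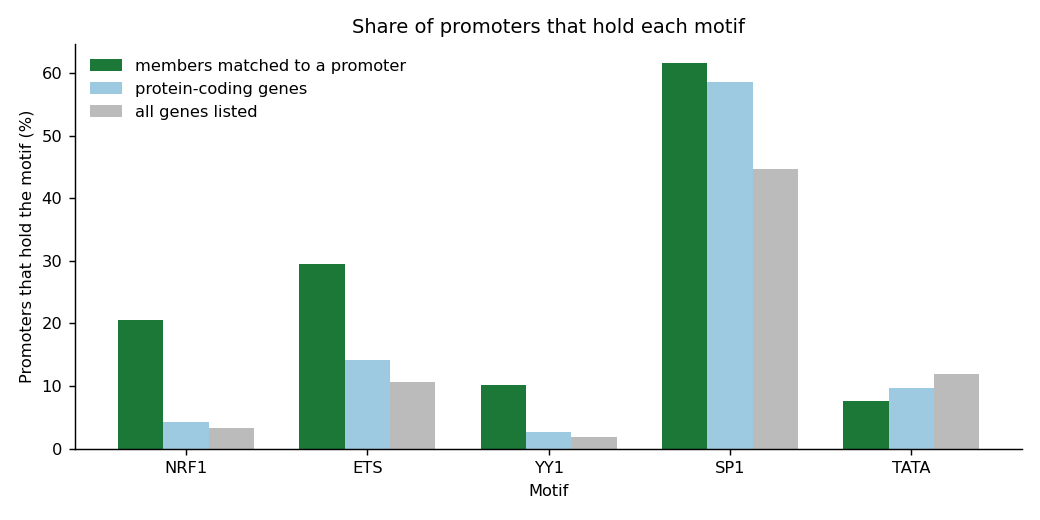
Share of promoters (percent) that hold each of 5 motifs on either strand, for the 78 members with a RefSeq promoter, for protein-coding genes and for all genes listed. The bars of NRF1, ETS and YY1 are higher for the members than for both other sets, and those of SP1 and TATA are close to the bars of protein-coding genes.

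The promoters below were chosen because they show how the motifs combine and because 4 of them belong to members discussed with the comparisons. Capitals mark matches to the NRF1, ETS or YY1 motif on either strand, all else is in lower case, and each sequence is the strand of its gene, read 5′ to 3′. SDHB, the iron-sulfur subunit of succinate dehydrogenase (minus strand, chr1:17053983-17054282), holds NRF1, ETS and YY1 letters in this order. COX6A1 (plus strand, chr12:120437863-120438162) holds NRF1 letters in both orientations and then an ETS match. NDUFA6 (minus strand, chr22:42090723-42091022) holds NRF1 and YY1, and UQCRC1 (minus strand, chr3:48609597-48609896) YY1 alone. ATP5MK (minus strand, chr10:103396426-103396725) holds 3 ETS matches, of which 2 overlap on opposite strands, and COX7B (plus strand, chrX:77899218-77899517) holds none of these, though it has TATAAA.
SDHB: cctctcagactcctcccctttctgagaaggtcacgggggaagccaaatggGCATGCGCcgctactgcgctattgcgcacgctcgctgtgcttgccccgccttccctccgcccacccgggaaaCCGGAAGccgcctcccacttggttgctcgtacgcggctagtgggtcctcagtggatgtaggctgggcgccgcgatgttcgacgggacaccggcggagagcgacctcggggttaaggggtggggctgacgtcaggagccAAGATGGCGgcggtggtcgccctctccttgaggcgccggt
COX6A1: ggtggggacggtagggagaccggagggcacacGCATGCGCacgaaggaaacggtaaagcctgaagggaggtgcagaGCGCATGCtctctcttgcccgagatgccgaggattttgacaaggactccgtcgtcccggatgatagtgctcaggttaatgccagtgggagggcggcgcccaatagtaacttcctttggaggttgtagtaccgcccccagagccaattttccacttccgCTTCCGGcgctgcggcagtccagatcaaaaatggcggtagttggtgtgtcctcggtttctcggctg
NDUFA6: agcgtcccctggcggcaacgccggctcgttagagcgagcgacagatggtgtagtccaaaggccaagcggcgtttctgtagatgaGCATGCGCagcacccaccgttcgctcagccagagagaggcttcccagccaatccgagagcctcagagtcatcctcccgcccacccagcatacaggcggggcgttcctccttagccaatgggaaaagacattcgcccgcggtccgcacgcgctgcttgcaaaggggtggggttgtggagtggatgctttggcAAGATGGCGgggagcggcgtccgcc
UQCRC1: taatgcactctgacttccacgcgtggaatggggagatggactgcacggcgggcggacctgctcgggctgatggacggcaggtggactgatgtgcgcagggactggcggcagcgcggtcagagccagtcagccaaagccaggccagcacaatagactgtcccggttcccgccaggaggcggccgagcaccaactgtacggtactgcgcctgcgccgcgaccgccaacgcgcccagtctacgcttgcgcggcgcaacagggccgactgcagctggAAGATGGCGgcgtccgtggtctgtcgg
ATP5MK: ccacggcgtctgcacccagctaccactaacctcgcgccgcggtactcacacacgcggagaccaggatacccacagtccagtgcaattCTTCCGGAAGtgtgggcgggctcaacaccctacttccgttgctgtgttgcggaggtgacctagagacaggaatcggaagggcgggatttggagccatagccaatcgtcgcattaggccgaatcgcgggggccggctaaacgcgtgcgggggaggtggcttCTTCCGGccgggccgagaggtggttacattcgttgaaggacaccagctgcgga
COX7B: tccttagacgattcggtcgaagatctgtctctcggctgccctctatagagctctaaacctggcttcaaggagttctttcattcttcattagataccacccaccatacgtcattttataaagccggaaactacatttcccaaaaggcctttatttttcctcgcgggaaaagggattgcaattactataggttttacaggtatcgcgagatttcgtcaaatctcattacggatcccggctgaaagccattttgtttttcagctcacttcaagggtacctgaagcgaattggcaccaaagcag

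The YY1 letters lay close to the start of transcription in these promoters, beginning 23 bases after it in UQCRC1, 25 in NDUFA6 and 10 in SDHB, while the NRF1 letters of NDUFA6 and SDHB began 166 and 200 bases before it. By complex, NRF1 letters were in 7 of 40 matched members of complex I, 3 of 7 of complex II, 0 of 7 of complex III, 2 of 10 of complex IV and 4 of 14 of complex V. In iKD2 Dox+ against iSCR Dox+, members with NRF1 letters had a median difference of -0.40 (log2) and those without -0.17. Against iKD2 Dox- the medians were -0.09 and -0.16, and in iKD2 Dox- against iSCR Dox+, where the knockdown is not the contrast, they were -0.31 and 0.10.

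Kallisto splits reads that match several transcripts, and 53 of the 91 members had counts that were not whole in at least 1 library. For 3 members, NDUFA6, NDUFS1 and ATP5IF1, another ID without a symbol carried the same count (at least 10 counts, within 1e-06) in 5 or more libraries. For NDUFS1 and ATP5IF1 the counts were equal in all 7 libraries, so their differences are nearly as they would be for the sum. Their standard errors and p-values are not. Against iKD2 Dox- the SE of NDUFS1 was 0.40 alone and 0.30 summed (log2), with an unadjusted p of 0.160 and 0.0667 from edgeR. NDUFA6, an accessory subunit of complex I (ENSG00000184983, chr22:42085525-42090955, minus strand, GENCODE 29), had equal counts in the 5 Dox+ libraries only. In iKD2 Dox- b and c its own row held 4.12e-04 and 0 counts and the other ID 866 and 984 counts. NDUFA6 alone thus had 23.0, 19.4 and 16.2 CPM in iKD2 Dox+, 2.01e-05 and 0 CPM in iKD2 Dox-, and 7.86 and 11.5 CPM in iSCR Dox+. Summed with the other ID it had 46.1, 38.8 and 32.4 CPM in iKD2 Dox+, 42.2 and 53.6 CPM in iKD2 Dox-, and 15.7 and 23.1 CPM in iSCR Dox+. The groups did not overlap in the row alone, whereas in the sum iKD2 Dox+ overlapped with iKD2 Dox- through library a, libraries b and c lay below both iKD2 Dox- values, and all 3 lay above iSCR Dox+.

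The question of the first comparisons is how the members change when METTL14 is targeted, against the uninduced line and against the scrambled hairpin. Summed over the 91 members, the level was 3544, 4005 and 3464 CPM in iKD2 Dox+, 4379 and 3759 CPM in iKD2 Dox-, and 4155 and 4261 CPM in iSCR Dox+. The iKD2 Dox+ and iKD2 Dox- groups overlapped, with library iKD2 Dox- c lying below iKD2 Dox+ b. Every iKD2 Dox+ library lay below both iSCR Dox+ libraries. On average iKD2 Dox+ stood at 88.7% of the 4 control libraries. The members made up 0.346% to 0.436% of a library's counts.

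Complex V was the complex whose iKD2 Dox+ sums did not overlap with the 4 control libraries. They were 1143, 1141 and 1126 CPM in iKD2 Dox+, 1321 and 1187 CPM in iKD2 Dox-, and 1346 and 1405 CPM in iSCR Dox+, and the mean of iKD2 Dox+ was 86.4% of that of the controls. The share was 86.9% when the library labelled iKD2 Dox+ c was left out. Without ATP5F1A and ATP5F1B, the subunits that form the catalytic ring and the members with the highest CPM, the sums of the other 16 genes overlapped, at 629 to 743 CPM in iKD2 Dox+ and 718 to 853 CPM in the controls. Complexes I, II, III and IV stood at 90.7%, 91.3%, 91.0% and 86.8% of the controls and overlapped with them. Against iKD2 Dox- alone these complexes stood at 92.0%, 100.3%, 93.1% and 82.6%, and against iSCR Dox+ alone at 89.4%, 83.8%, 89.0% and 91.5%. For complex V the shares were 90.6% and 82.7%. The pooled shares thus average control groups that differ. The β-cell and ductal marker sums separated the same libraries, and their part in the complex V sum was not tested. With the ID of equal count added to ATP5IF1, described above, the complex V sums did not overlap either, at 1180.3 to 1249 CPM against 1265 to 1482 CPM. No test was run on sums of members.

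**Figure D3:**
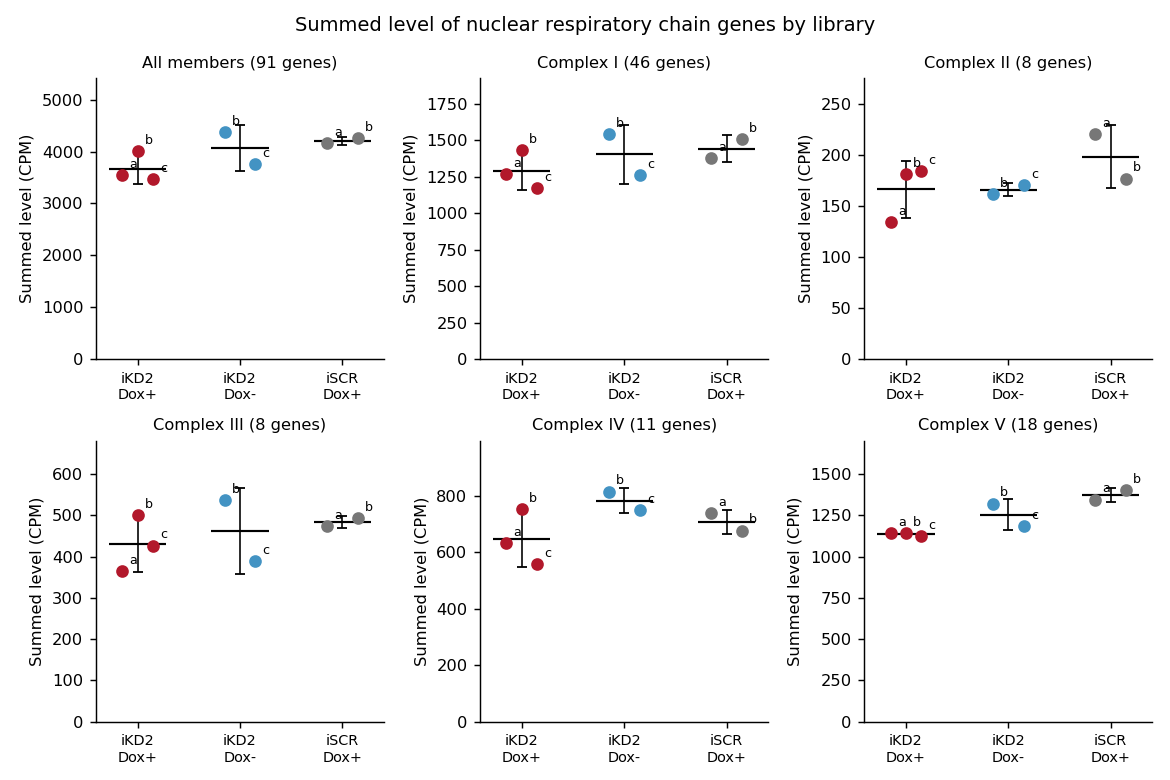
Summed level in CPM of all members and of each complex in the 7 libraries, by group. Points are libraries with their replicate letter, bars are group means and whiskers are SD (n = 3, 2 and 2). In complex V the 3 iKD2 Dox+ libraries, at 1126 to 1143 CPM, lie below all 4 controls. In the other panels iKD2 Dox+ overlaps with the range of the 4 controls. In the panel of all members it lies below both iSCR Dox+ libraries.

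Against iKD2 Dox-, no member passed an adjusted p of 0.05 with edgeR (0 of 91, background 0.0393% of genes tested). At an unadjusted p under 0.05, 1 member was higher (2.04% of genes tested) and 0 were lower (1.67%). The 1 member was NDUFA6 (unadjusted p = 2.34e-05, adjusted p = 0.0536 with edgeR). With the ID of equal count added, its difference was -0.29 ± 0.53 (log2, SE) with an adjusted p of 1.0 from edgeR, and 0 members were left at an unadjusted p under 0.05. DESeq2's Wald test called NDUFA6 alone (adjusted p = 5.42e-08) and limma voom called 0 members. The median difference of the members was -0.16 (log2), against 0.01 over all genes tested and 0.02 over those at 5 CPM or more. Of the 91, 62 had a negative difference (68.1%, against 49.2% of all genes). When the library labelled iKD2 Dox+ c was left out, 1 member was under an unadjusted p of 0.05. The share of all genes in that fit is not given here, so this count has no background. The members' median was then -0.19 with 56 negative, against -0.03 over all genes tested. Without iKD2 Dox- b the members' median was -0.04 with 49 negative, against 0.15 over all genes tested.

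From each gene's own row, the next lowest p-values in this comparison were those of UQCRQ, ATP5PB, COX4I1 and NDUFS3. Each had a negative difference and none was called. UQCRQ, a small subunit of complex III, had 23.6, 34.1 and 43.7 CPM in iKD2 Dox+, 78.2 and 51.1 CPM in iKD2 Dox-, and 21.5 and 34.4 CPM in iSCR Dox+. The iKD2 Dox- libraries were the highest ones, and the difference was -0.94 ± 0.51 (log2, SE, unadjusted p = 0.0788, adjusted p = 1.0 with edgeR). ATP5PB, the b subunit of the peripheral stalk of ATP synthase, had 27.3, 53.2 and 36.1 CPM in iKD2 Dox+, 63.6 and 67.0 CPM in iKD2 Dox-, and 47.9 and 80.5 CPM in iSCR Dox+. Its iKD2 Dox+ range met that of iSCR Dox+, and the difference from iKD2 Dox- was -0.75 ± 0.44 (log2, SE). COX4I1 had 129, 200.0 and 111 CPM in iKD2 Dox+, 221 and 183 CPM in iKD2 Dox-, and 142 and 161 CPM in iSCR Dox+. Its groups overlapped, with a difference of -0.46 ± 0.28 (log2, SE). NDUFS3, a core subunit of complex I, had 6.11, 2.33 and 4.75 CPM in iKD2 Dox+, 24.9 and 6.01 CPM in iKD2 Dox-, and 22.8 and 8.79 CPM in iSCR Dox+, and its iKD2 Dox+ libraries lay below or just above iKD2 Dox- c, with a difference of -1.81 ± 1.18 (log2, SE).

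Against iSCR Dox+, 0 of 91 members passed an adjusted p of 0.05 with edgeR (background 0.0262%). At an unadjusted p under 0.05, 0 were higher (3.94% of genes tested) and 1 was lower (2.78%). DESeq2's Wald test and limma voom called 0 at the adjusted threshold as well, with 10 and 3 members at an unadjusted p under 0.05. What share of all genes these methods put under that p is not given here, so the 10 and 3 have no background. The members' median was -0.26 (log2), against 0.08 over all genes tested and 0.01 over those at 5 CPM or more, and 60 of 91 were negative (65.9%, against 46.7%). When the library labelled iKD2 Dox+ c was left out, 0 members were under an unadjusted p of 0.05, again with no share of all genes given. The members' median was then -0.17 with 54 negative, against 0.01 over all genes tested. Without iSCR Dox+ a the members' median was -0.10 with 50 negative, against 0.28 over all genes tested. Both comparisons use the same iKD2 Dox+ libraries, so their medians are not independent of each other. Beside these values, INS, the insulin gene, fell by 0.85 on the log2 scale against iSCR Dox+ (adjusted p = 4.71e-04, edgeR). At an unadjusted p under 0.05 with edgeR, INS was also lower in iKD2 Dox+ against iKD2 Dox- and in iKD2 Dox- against iSCR Dox+. It passed the adjusted threshold in neither of these. Whether cell makeup moved the members was not tested.

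The 1 member under 0.05 was NDUFA10, an accessory subunit of complex I. It had 66.9, 88.2 and 78.2 CPM in iKD2 Dox+, 91.2 and 67.8 CPM in iKD2 Dox-, and 97.1 and 168 CPM in iSCR Dox+. Library iSCR Dox+ b stood apart and the other 6 lay close together, and the difference was -0.77 ± 0.33 (log2, SE, unadjusted p = 0.0315, adjusted p = 0.699 with edgeR). NDUFS5, another accessory subunit, had 57.7, 95.6 and 60.5 CPM in iKD2 Dox+, 86.4 and 49.8 CPM in iKD2 Dox-, and 24.1 and 50.2 CPM in iSCR Dox+. All iKD2 Dox+ libraries were above both iSCR Dox+ libraries and met iKD2 Dox-, and the difference was 0.94 ± 0.46 (log2, SE). NDUFB8, an accessory subunit of the membrane arm, differed by -0.87 ± 0.43, ATP5F1D, the δ subunit of ATP synthase, by -0.67 ± 0.34 and NDUFAF6, a complex I assembly factor, by -2.03 ± 1.06 (log2, SE, adjusted p = 0.699 for all of them with edgeR). NDUFAF6 had 5.32, 6.24 and 5.15 CPM in iKD2 Dox+, 19.6 and 5.45 CPM in iKD2 Dox-, and 31.4 and 14.2 CPM in iSCR Dox+, so that both iSCR Dox+ values exceeded every iKD2 Dox+ value, while iKD2 Dox- c lay among them.

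**Figure D4:**
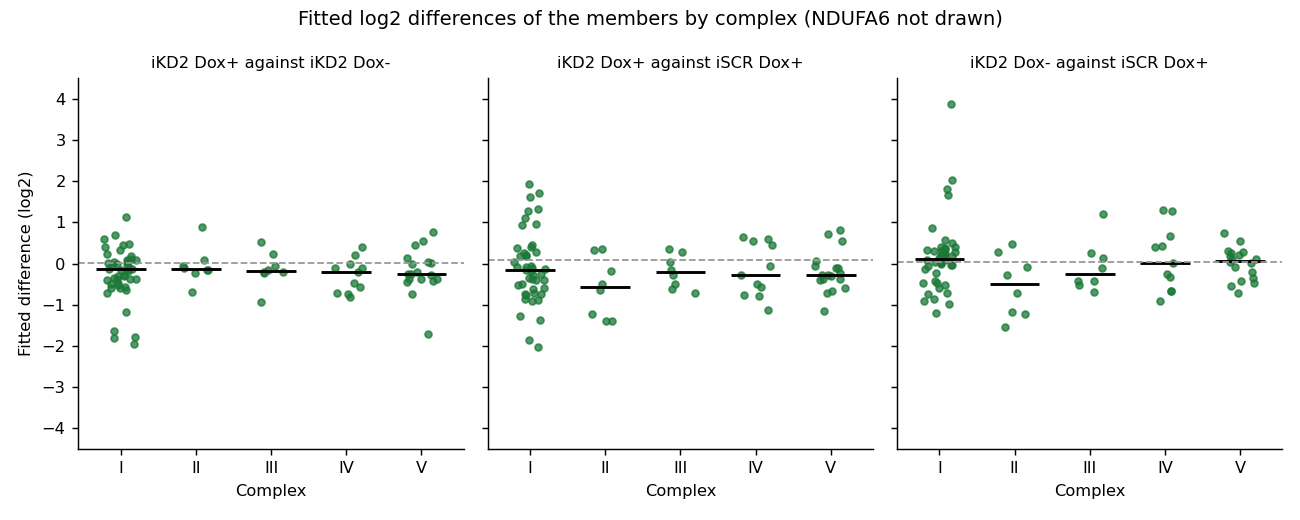
Fitted differences (log2) of 90 members by complex in the 3 comparisons, with NDUFA6 not drawn because its row alone was at or near 0 in iKD2 Dox-. Points are genes, bars are medians of the complex and the dashed line is the median of all genes tested. The complex I bar is the median of all 46 members, NDUFA6 included. In both comparisons of iKD2 Dox+ the median of each complex lies below the dashed line, and in the comparison of the control groups the medians lie on both sides of it.

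By complex, the median differences from iKD2 Dox- were -0.14 for complex I, -0.13 for complex II, -0.18 for complex III, -0.21 for complex IV and -0.25 for complex V (log2). Those from iSCR Dox+ were -0.15 for complex I, -0.57 for complex II, -0.21 for complex III, -0.27 for complex IV and -0.27 for complex V. Within complex I, the 7 core subunits, which carry the flavin and the iron-sulfur clusters, had medians of -0.57 and -0.49, and the 29 accessory subunits -0.03 and -0.14. The core subunits summed to 217, 253 and 219 CPM in iKD2 Dox+, 323 and 283 CPM in iKD2 Dox-, and 213 and 374 CPM in iSCR Dox+. They overlapped, since iSCR Dox+ a was the lowest of all libraries. The 12 assembly factors among the members had medians of -0.28 and -0.12. None of these subsets was tested as a set.

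In 3 members all iKD2 Dox+ libraries lay above all 4 control libraries, which held for 3.46% of genes tested, and in 2 they lay below (2.83%). The counts are thus close to the background. UQCRC1, a core protein of complex III (ENSG00000010256, chr3:48599002-48610976, minus strand), had 122, 123 and 130.3 CPM in iKD2 Dox+, 103 and 111 CPM in iKD2 Dox-, and 90.9 and 104 CPM in iSCR Dox+. Its groups were narrow, and it differed by 0.23 ± 0.29 from iKD2 Dox- and 0.36 ± 0.29 from iSCR Dox+ (log2, SE, adjusted p = 1.0 and 0.777 with edgeR). NDUFB2, an accessory subunit of the complex I membrane arm (chr7:140690777-140722790, plus strand), had 58.7, 46.3 and 30.0 CPM in iKD2 Dox+, 27.9 and 27.3 CPM in iKD2 Dox-, and 14.7 and 27.0 CPM in iSCR Dox+. The gap to the controls was 30.0 against 27.9 CPM at its narrowest, and the differences were 0.71 ± 0.58 and 1.11 ± 0.59 (log2, SE). The third was NDUFA6, which left this list when the ID of equal count was added.

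COX7B, a small subunit of cytochrome c oxidase (chrX:77899438-77907373, plus strand), had 20.2, 16.0 and 9.53 CPM in iKD2 Dox+, 25.4 and 28.2 CPM in iKD2 Dox-, and 37.2 and 29.8 CPM in iSCR Dox+. Every iKD2 Dox+ library was below every control, with differences of -0.81 ± 0.67 from iKD2 Dox- and -1.13 ± 0.67 from iSCR Dox+ (log2, SE, adjusted p = 1.0 and 0.699 with edgeR). ATP5MK, a small membrane subunit of ATP synthase (chr10:103389041-103396492, minus strand), had 1.32, 10.0 and 5.43 CPM in iKD2 Dox+, 14.7 and 22.2 CPM in iKD2 Dox-, and 13.5 and 11.5 CPM in iSCR Dox+. It was low in all libraries and lowest in iKD2 Dox+, with differences of -1.72 ± 1.16 and -1.16 ± 1.15 (log2, SE).

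**Figure D5:**
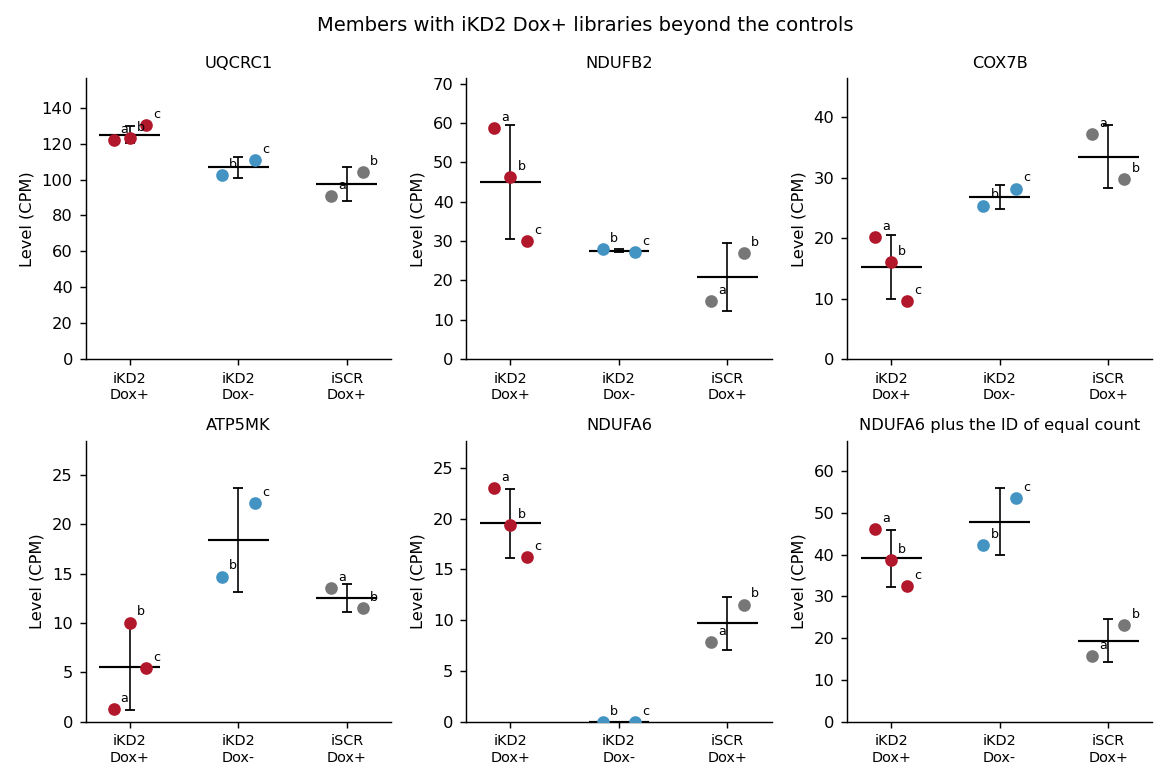
Levels in CPM in the 7 libraries for the members whose iKD2 Dox+ libraries lie beyond all controls, and for NDUFA6 summed with the ID of equal count. Points are libraries with their replicate letter, bars are means and whiskers are SD (n = 3, 2 and 2). NDUFA6 alone is at or near 0 in iKD2 Dox-, while the sum lies at 42.2 and 53.6 CPM there.

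The 2 control groups were compared to see how much the members differ without the knockdown being the contrast. Of 91 members, 0 passed an adjusted p of 0.05 with edgeR (background 0.0131%), while 3 were higher in iKD2 Dox- at an unadjusted p under 0.05 (2.66% of genes tested) and 1 was lower (1.79%). DESeq2's Wald test called NDUFA6 alone and limma voom 0 members. The median difference was 0.04 (log2), the same as the 0.04 of all genes tested to 2 decimals, and 41 members were negative. The higher members were NDUFV3, COX6B1 and UQCRQ. NDUFV3, a small subunit beside the flavin site of complex I, had 34.0, 20.2 and 26.3 CPM in iKD2 Dox+, 33.8 and 43.7 CPM in iKD2 Dox-, and 6.36 and 15.8 CPM in iSCR Dox+, a difference of 1.81 ± 0.75 (log2, SE). COX6B1, a subunit on the outer face of cytochrome c oxidase, had 23.5, 67.3 and 34.4 CPM in iKD2 Dox+, 72.9 and 63.1 CPM in iKD2 Dox-, and 36.9 and 18.6 CPM in iSCR Dox+, a difference of 1.29 ± 0.58. For UQCRQ it was 1.21 ± 0.57. The adjusted p was 0.826 for each of these with edgeR. The lower member was NDUFA6, which with the ID of equal count was higher by 1.30 ± 0.59 (log2, SE, adjusted p = 0.826 with edgeR). NDUFS4, an accessory subunit, was the fifth by p, with 26.4, 28.3 and 40.6 CPM in iKD2 Dox+, 24.7 and 21.3 CPM in iKD2 Dox-, and 61.4 and 44.8 CPM in iSCR Dox+. Both iSCR Dox+ libraries were above all others, with a difference of -1.21 ± 0.60 (log2, SE).

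The core subunits of each complex were read next. In ATP synthase, ATP5F1A, the α subunit, had 227, 263 and 275 CPM in iKD2 Dox+, 245 and 256 CPM in iKD2 Dox-, and 322 and 354 CPM in iSCR Dox+. The iSCR Dox+ libraries were the highest, iKD2 Dox+ and iKD2 Dox- overlapped, and the differences were 0.03 ± 0.22 from iKD2 Dox- and -0.41 ± 0.22 from iSCR Dox+ (log2, SE, adjusted p = 1.0 and 0.699 with edgeR). ATP5F1B, the β subunit, had 173, 145 and 221 CPM in iKD2 Dox+, 223 and 213 CPM in iKD2 Dox-, and 192 and 273 CPM in iSCR Dox+, with overlapping groups. ATP5F1C, the central γ subunit, had 66.8, 39.9 and 48.3 CPM in iKD2 Dox+, 45.3 and 48.6 CPM in iKD2 Dox-, and 95.9 and 59.3 CPM in iSCR Dox+, and its groups overlapped with iSCR Dox+ a as the highest library. The differences of ATP5F1B and ATP5F1C from iSCR Dox+ were -0.37 ± 0.25 and -0.59 ± 0.42.

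In complex I, NDUFV1, which binds NADH and the flavin, had 63.7, 27.5 and 27.4 CPM in iKD2 Dox+, 38.9 and 41.0 CPM in iKD2 Dox-, and 45.4 and 75.2 CPM in iSCR Dox+. Its groups overlapped. NDUFV2, its partner, ranged from 19.3 to 43.2 CPM. NDUFS1, which holds iron-sulfur clusters, had 48.4, 56.5 and 44.1 CPM in iKD2 Dox+, 58.8 and 90.2 CPM in iKD2 Dox-, and 67.8 and 51.1 CPM in iSCR Dox+, and all iKD2 Dox+ libraries were below both iKD2 Dox- libraries with iSCR Dox+ b among them. NDUFS7 and NDUFS8, which carry the last clusters before ubiquinone, ranged from 9.48 to 52.8 and from 10.2 to 86.2 CPM, both with iSCR Dox+ a as the lowest and iSCR Dox+ b as the highest library. Replicates of 1 group thus spanned the whole range of these genes.

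In complex II, SDHA had 78.8, 56.1 and 114 CPM in iKD2 Dox+, 65.2 and 91.0 CPM in iKD2 Dox-, and 72.7 and 56.6 CPM in iSCR Dox+, and the library labelled iKD2 Dox+ c was the highest. The table also lists the SDHA pseudogenes SDHAP1, SDHAP3 and SDHAP4 at 5 CPM or more, so that the split of reads among them is uncertain. SDHB had 5.98, 36.1 and 29.2 CPM in iKD2 Dox+, 33.1 and 22.2 CPM in iKD2 Dox-, and 27.0 and 39.9 CPM in iSCR Dox+, with iKD2 Dox+ a apart from the others. The anchors SDHC and SDHD ranged from 7.49 to 33.7 and from 3.66 to 31.8 CPM. Their differences from iSCR Dox+ were -0.19 ± 0.84 and -0.65 ± 1.09 (log2, SE). In complex III, UQCRC2, the other core protein, had 53.1, 92.5 and 69.3 CPM in iKD2 Dox+, 85.5 and 74.5 CPM in iKD2 Dox-, and 74.0 and 98.5 CPM in iSCR Dox+, and the Rieske iron-sulfur protein UQCRFS1 had 27.3, 77.7 and 29.7 CPM in iKD2 Dox+, 57.5 and 36.6 CPM in iKD2 Dox-, and 54.9 and 70.7 CPM in iSCR Dox+. Both overlapped between groups, with differences from iSCR Dox+ of -0.27 ± 0.36 and -0.48 ± 0.50.

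In complex IV, COX7C, a small subunit and the second highest member of the complex per kilobase after COX4I1, had 186, 205 and 156 CPM in iKD2 Dox+, 183 and 186 CPM in iKD2 Dox-, and 257 and 181 CPM in iSCR Dox+, and its differences were -0.02 ± 0.25 from iKD2 Dox- and -0.27 ± 0.25 from iSCR Dox+ (log2, SE). COX5B, a subunit that binds zinc, had 29.3, 27.3 and 24.8 CPM in iKD2 Dox+, 39.3 and 50.9 CPM in iKD2 Dox-, and 19.9 and 17.4 CPM in iSCR Dox+. Its iKD2 Dox+ libraries lay between the control groups, below both iKD2 Dox- and above both iSCR Dox+ libraries, with differences of -0.73 ± 0.57 and 0.54 ± 0.59. COX7A2L, which takes part in joining complexes III and IV, ranged from 18.5 to 52.6 CPM with overlapping groups. COX5B and COX7A2L were singled out after their values were seen.

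The remaining members are given by family. The 12 NDUFA accessory subunits had means of 9.72 to 93.8 CPM, and 7 of 12 differences from iKD2 Dox- and 6 of 12 from iSCR Dox+ were negative. The 11 NDUFB subunits, which sit in the membrane arm, had means of 6.37 to 68.8 CPM, with 5 and 7 of 11 negative. These families thus split in sign. Of the 8 NDUFAF assembly factors, with means of 5.84 to 23.6 CPM, 7 and 5 were negative. Of the 4 SDHAF assembly factors of succinate dehydrogenase, with means of 6.44 to 13.8 CPM, 4 and 3 were negative. SDHAF1 was at 0 in 1 library and NDUFB3 in 1.

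In the ATP synthase, the 5 ATP5F1 subunits of the soluble head had means of 57.7 to 277 CPM, and 3 of 5 differences from iKD2 Dox- and 5 of 5 from iSCR Dox+ were negative. The 8 ATP5M genes of the membrane part had means of 6.91 to 67.4 CPM, with 6 and 6 of 8 negative, and the 4 ATP5P genes of the stalk 38.8 to 53.7 CPM, with 2 and 3 of 4. ATP5IF1, the inhibitor, had 106, 60.7 and 54.3 CPM in iKD2 Dox+, 96.9 and 77.5 CPM in iKD2 Dox-, and 64.6 and 77.0 CPM in iSCR Dox+, and its groups overlapped. In complexes III and IV, 6 of 8 and 9 of 11 differences from iKD2 Dox- were negative, and 5 and 7 from iSCR Dox+. For the comparison of the control groups, the counts were 5 of 8 and 5 of 11.

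Genes that serve the same chain but fall outside the rule were read beside the members. Of 37 assembly factors tested, 0 passed an adjusted p of 0.05 in any comparison with edgeR, and at an unadjusted p under 0.05 there were 0 against iKD2 Dox- and 1 higher against iSCR Dox+. In iKD2 Dox- against iSCR Dox+ 1 was higher and 1, TMEM70, was lower. The higher gene in both was UQCC2, an assembly factor of complex III, with 34.2, 58.8 and 35.1 CPM in iKD2 Dox+, 34.9 and 36.5 CPM in iKD2 Dox-, and 5.69 and 9.83 CPM in iSCR Dox+. Both iKD2 groups lay above iSCR Dox+ without overlap, with differences of 2.46 ± 0.65 for iKD2 Dox+ and 2.20 ± 0.68 for iKD2 Dox- (log2, SE, unadjusted p = 0.00113 and 0.00382, adjusted p = 0.361 and 0.803 with edgeR). The median of the list was -0.15 against iKD2 Dox- and -0.14 against iSCR Dox+ (log2).

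The mobile electron carrier cytochrome c, CYCS, had 88.2, 82.9 and 108 CPM in iKD2 Dox+, 98.2 and 97.7 CPM in iKD2 Dox-, and 126 and 84.6 CPM in iSCR Dox+, with overlapping groups. CYC1, cytochrome c1 of complex III, falls outside the prefixes, so the complex III values do not include it. It had 14.2, 26.4 and 24.4 CPM in iKD2 Dox+, 94.2 and 31.0 CPM in iKD2 Dox-, and 1.83 and 80.7 CPM in iSCR Dox+. Its differences were -1.53 ± 1.24 from iKD2 Dox- and -0.93 ± 1.24 from iSCR Dox+ (log2, SE), and neither was called. Among 11 regulators of these genes, 2 were higher against iSCR Dox+ at an unadjusted p under 0.05 (3.94% of genes tested). With edgeR 0 passed the adjusted threshold. PPARGC1A, a coactivator of mitochondrial genes, had 39.4, 11.7 and 7.61 CPM in iKD2 Dox+, 22.3 and 19.9 CPM in iKD2 Dox-, and 3.59 and 1.54 CPM in iSCR Dox+. NRF1, whose motif was searched above, had 1.56, 23.0 and 28.9 CPM in iKD2 Dox+, 11.2 and 8.33 CPM in iKD2 Dox-, and 1.22 and 1.74 CPM in iSCR Dox+. The iSCR Dox+ libraries were low for both genes, and so was iKD2 Dox+ a for NRF1. The fitted differences from iSCR Dox+ were 2.93 ± 1.10 and 3.58 ± 1.47 (log2, SE, adjusted p = 0.673 and 0.699 with edgeR). From iKD2 Dox- they were -0.11 ± 0.96 for PPARGC1A and 0.87 ± 1.28 for NRF1. In iKD2 Dox- against iSCR Dox+ they were 3.04 ± 1.15 and 2.71 ± 1.47. There PPARGC1A was again under an unadjusted p of 0.05 with edgeR and NRF1 was not.

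The 13 mRNAs encoded in mitochondrial DNA summed to 27586, 27689 and 28821 CPM in iKD2 Dox+, 25959 and 24322 CPM in iKD2 Dox-, and 28565 and 24720.4 CPM in iSCR Dox+. Groups overlapped through iSCR Dox+ a, and 0 of 13 passed an adjusted p of 0.05 with edgeR, while MT-CYB and MT-CO2 were higher against iSCR Dox+ at an unadjusted p under 0.05. Against iKD2 Dox- 11 of the 13 differences were positive, with a median of 0.20 (log2). Against iSCR Dox+ 8 were positive and 5 negative, with a median of 0.03. In iKD2 Dox- against iSCR Dox+ 5 were positive and 8 negative, with a median of -0.17. There MT-ND1 was lower at an unadjusted p under 0.05 with edgeR. The ratio of this sum to the members' sum was 7.78, 6.91 and 8.32 in iKD2 Dox+, 5.93 and 6.47 in iKD2 Dox-, and 6.87 and 5.80 in iSCR Dox+. Each iKD2 Dox+ ratio was above each control ratio, with 6.91 against 6.87 at the narrowest, and the ratio was not tested. Of 9 hypoxia and glycolysis genes tested, 8 and 8 had a negative difference against iKD2 Dox- and iSCR Dox+, as did 8 in the control comparison. VEGFA and BNIP3 were lower against iSCR Dox+ at an unadjusted p under 0.05, and 0 passed the adjusted threshold with edgeR in any comparison.

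The spread between replicates sets what these data can show. The within-group coefficient of variation of the members had a median of 35.8%. It was 56.2% for the 31 members under 20 CPM, 34.2% for the 35 at 20 to 50 CPM and 24.9% for the 25 at 50 CPM or more. All genes tested at 50 CPM or more had 24.1%. UQCRC1 and ATP5F1A were the steadiest members, at 5.74% and 7.74%, and the read-through gene NDUFC2-KCTD14 the least steady at 104%. Against iKD2 Dox- the 95% interval of the difference was -0.43 to 0.48 (log2) for ATP5F1A, -0.38 to 0.84 for UQCRC1 and -1.47 to 3.26 for SDHD. Small differences in the low members were not detectable at this depth and number of libraries.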

How the data were processed

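RNA of 7 libraries was sequenced by the authors with a stranded total RNA kit in paired ends, reads were trimmed with fastp and quantified with Kallisto, and transcripts were summed to genes with tximport. The deposited values are estimated counts per Ensembl gene ID, not scaled for depth or length. Versions, genome build and annotation release are not given in the sources used here. Of 66025 IDs, 59369 had a symbol in the gene name table, and types, positions and transcript lengths came from GENCODE 29. The members and gene lists were chosen with earlier results of these data known.

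Estimated counts were rounded, filtered with filterByExpr and scaled by TMM. The 3 groups entered 1 fit of edgeR's quasi-likelihood test (edgeR 4.0.16, R 4.3.3) with Benjamini-Hochberg adjustment over 22926 genes. A first run on simulated data used less spread than the common estimate fitted here, so it cannot show how the test does at that spread. CPM values use TMM-scaled library sizes, whereas the 5 CPM rule uses plain totals. Standard errors come from the fit. Named were the 5 members with the lowest p in each comparison, those highest and lowest per kilobase in each complex, paralogue sets, core subunits, and members whose iKD2 Dox+ libraries lay beyond all controls. The values of 1 core subunit are not reported here. Alternatives used DESeq2 1.42.0, limma 3.58.1, other scalings and filters, and each library left out. Adding IDs of equal count was chosen after seeing the data. Replicates a, b and c did not pair across groups: deviations of same-letter libraries correlated between -0.025 and 0.015 in 5 pairs over 14419 genes. Total counts of 14875429 to 20639156 set the precision, and intervals and floors cover counting error only where they rest on counts of 0.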

Additional observations from a re-analysis of the deposited data

How the results depend on the processing

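With 2 or 3 libraries a group, a lone library left in an arm was taken to vary like the other groups. Against iKD2 Dox-, 1 member passed the adjusted threshold in place of 0 with DESeq2 size factors, with no filter beyond 1 count, with DESeq2's Wald test and with only the groups compared, and NDUFA6 was that member each time. In the control comparison 1 member, again NDUFA6, passed with no filter and with DESeq2's Wald test. These calls rest on the row alone: summed with the ID of equal count, a setting chosen after seeing the data, NDUFA6 turned to -0.29 and to 1.30 (log2) in these comparisons. Members at an unadjusted p under 0.05 against iKD2 Dox- numbered 2 with DESeq2's Wald test, limma voom and only the groups compared, and 0 with the IDs summed. Against iSCR Dox+ they numbered 2 with DESeq2 size factors and with a mean of at least 5 CPM, 3 with no filter and with voom, and 10 with DESeq2's Wald test. In the control comparison they numbered 9 with DESeq2's Wald test and 7 with voom. No share of all genes is given for the alternatives here or below, so these counts of members have no background beside them.

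The letters did not pair the libraries. With the replicate block, members at an unadjusted p under 0.05 numbered 2 against iSCR Dox+ and 1 in the control comparison, and the median against iSCR Dox+ was -0.13 (log2). The cause of these shifts was not tested.

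Leaving out 1 library at a time gave medians of -0.32 (without iKD2 Dox- c) to -0.037 (without iKD2 Dox- b) against iKD2 Dox-, -0.39 (without iKD2 Dox+ b) to -0.10 (without iSCR Dox+ a) against iSCR Dox+, and -0.15 (without iKD2 Dox- b) to 0.16 (without iKD2 Dox- c) in the control comparison. In the same order, the medians of all genes tested were 0.13 and 0.15, 0.01 and 0.28, and 0.0 and 0.0. Members at an unadjusted p under 0.05 numbered 1 to 5, 0 to 9 and 2 to 10, highest without iKD2 Dox+ b in the first and without iSCR Dox+ b in the others. Members past the adjusted threshold numbered 0 to 1, 0 to 1 and 0 to 2. They were NDUFA6, when an iSCR Dox+ library was left out, and, without iSCR Dox+ b, NDUFA7, an accessory subunit with 0.0677 CPM in the remaining iSCR Dox+ a. METTL14 ran from -0.83 to 0.30 against iKD2 Dox- and from -0.60 to 0.21 in the control comparison. Complex V stood at 83.7% to 88.5% of the controls. Besides NDUFA6, the members with the 5 lowest p-values in a comparison or with iKD2 Dox+ beyond all controls kept their sign and stayed short of the adjusted threshold there in all 16 alternatives. The signs of the other named members were not followed across alternatives.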
